A study of Mus musculus with 6 samples.

Results

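The 10 genes described here encode the core of calcium cycling in the heart muscle cell: Ryr2, Atp2a2, Pln, Casq2, Cacna1c, Slc8a1, Jph2, Camk2d, Sln and Hrc. They were taken by name from the deposited table of normalized read counts, which holds 24972 gene rows, and all 10 were found once. All 10 also passed the minimum mean of 10 normalized counts over the libraries, so that 10 of the 12477 genes tested are members. The study measured RNA in 6 libraries of ventricular cardiomyocytes, with 3 mice in each group per the study's design text. All mice carried the MX1gfp allele, a fluorescent reporter at the interferon-stimulated gene Mx1, so no library comes from a mouse without it. The vehicle group (3 mice) received phosphate-buffered saline into the peritoneum. The doxorubicin group (3 mice) received 1 dose of doxorubicin, an anthracycline cancer drug that is toxic to the heart, at 25 mg per kg body weight in 100 microlitres of the same saline. Hearts were taken 48 hours later, digested with collagenase, freed of the atria and left to settle by gravity for 20 minutes, which enriches myocytes but does not sort them. The sources used here give neither age nor sex.

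With each heartbeat a little calcium enters the myocyte through the L-type channel, and this calcium opens the release channel of the sarcoplasmic reticulum, so that a larger store of calcium reaches the myofilaments. Relaxation follows when the calcium pump of the reticulum takes calcium back up and the sodium-calcium exchanger carries the rest out of the cell. Small membrane proteins restrain the pump, luminal proteins buffer the store, junctophilin holds surface and reticulum membranes together at the dyad, and a calmodulin-dependent kinase tunes several of these steps.

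Promoter sequences are shown for 3 members, because they span the range of the differences reported below: Casq2 had the largest negative difference, Ryr2 the next and Pln the smallest. Each line gives the 250 bases before the start of transcription, read 5′ to 3′ on the gene's strand from the RefSeq table of GRCm38.p6, which is the mm10 assembly. Capitals mark matches on either strand to any of 7 motifs. The TATA box was searched as TATAAA and the E-box as CANNTG. The GATA motif was searched as AGATAA and the GC box as GGGCGG. M-CAT was searched as CATTCC, the CCAAT box by its own letters, and MEF2 as CTA and TAG with any 4 bases between them.
Casq2 (chr3:102086165-102086414, plus strand): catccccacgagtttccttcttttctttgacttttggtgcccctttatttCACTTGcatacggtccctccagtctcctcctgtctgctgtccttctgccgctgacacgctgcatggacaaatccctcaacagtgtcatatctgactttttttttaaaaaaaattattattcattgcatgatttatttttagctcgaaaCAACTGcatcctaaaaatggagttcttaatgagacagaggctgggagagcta
Ryr2 (chr13:12106946-12107195, minus strand): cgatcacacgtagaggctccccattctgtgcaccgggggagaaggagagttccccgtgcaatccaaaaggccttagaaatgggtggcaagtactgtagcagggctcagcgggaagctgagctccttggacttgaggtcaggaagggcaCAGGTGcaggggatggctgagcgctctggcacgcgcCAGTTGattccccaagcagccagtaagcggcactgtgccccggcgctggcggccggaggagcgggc
Pln (chr10:53337436-53337685, plus strand): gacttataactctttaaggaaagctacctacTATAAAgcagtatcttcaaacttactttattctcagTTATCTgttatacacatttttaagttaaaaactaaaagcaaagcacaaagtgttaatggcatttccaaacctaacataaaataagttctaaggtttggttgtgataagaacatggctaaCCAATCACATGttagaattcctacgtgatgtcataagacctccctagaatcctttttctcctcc
In these 3 windows, E-boxes were the matches of Casq2 and Ryr2, whereas Pln held a TATA box, a GATA match, and a CCAAT box that runs into an E-box. Pln had the lowest G and C content of the 3, at 32.8%, against 41.6% in Casq2 and 63.2% in Ryr2, and the median of all 32851 windows in the table was 52.4%. The table held 11 windows for 8 of the 10 members, and it was not searched further for Sln and Atp2a2. The 11 windows are not separate, since 2 belong to Jph2 and share 230 of their bases and 3 belong to Cacna1c, so matches are counted by gene. An E-box was present in at least 1 window of 7 of the 8 genes (66.2% of all windows in the table), a GC box in 4 (32.7%), a CCAAT box in 4 (33.8%), a GATA match in 2 (9.99%) and a TATA box in 1 (12.4%). MEF2 matches, found in 3.20% of all windows, and M-CAT matches, found in 12.6%, were in 0 of the 8. Genes with several windows have more chances of a match than a single window. A match is a run of letters and not a measured binding site.

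The libraries differed in ways that bear on every value below. Totals of the deposited values ranged from 7217950 to 7500390 in the vehicle libraries and from 5410780 to 6498370 in the doxorubicin libraries. An estimate of the reads behind them, made from the steps between low values, came to 7706660 to 11366800 and to 3668330 to 6171290, so every doxorubicin library was shallower than every vehicle library. The summed level of 11 cardiomyocyte markers was 701218 to 790029 in the vehicle libraries, 598210 in doxorubicin replicate 1, and 192397 and 172518 in replicates 2 and 3, with none of the 11 at 0 in any library. All 10 macrophage markers lay higher in the doxorubicin libraries without overlap, a pattern seen in 19.2% of all genes tested. Their sums were 4281, 7582 and 15805 (replicates 1, 2 and 3) where the vehicle libraries had 2620 to 2843. Sums of 8 fibroblast markers were 8639, 22816 and 16406 against 6236 to 8274. Most of the larger sums was Dcn alone, at 3113, 18072 and 11326 against 2446 to 2905. Of the 8, 3 were higher without overlap (19.2% of all genes tested). A positive log2 fold change was seen in 7 and a negative one (50.4% of all genes tested) in 1, Col3a1 (-0.42). Sums of 8 endothelial markers were 21873, 20433 and 26390 against 13112 to 16872. Of these 8, 5 were higher without overlap (19.2% of all genes tested) and 7 had a positive log2 fold change. Kdr had a negative one (-0.26), with 5139, 2159 and 3401 against 3448 to 4340. The part that these shifts have in the results was not tested, and fewer myocytes and less RNA per myocyte cannot be told apart in such libraries. Vehicle replicate 3 and doxorubicin replicates 1 and 3 held the female transcript Xist, and the other 3 libraries held Y-linked Ddx3y.

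Of the 10 genes, 9 had a negative log2 fold change after doxorubicin (50.4% of all genes tested) and 1, Sln, had a positive one. Log2 fold changes are doxorubicin minus vehicle, after adding a pseudocount of 1. They ran from -1.74 to -0.79 in the 9 and stood at 1.31 in Sln. The median of the 10 was -1.18, whereas the median of all genes tested was -0.0046. Quantile normalization brought the members' median to -0.75. Under limma with Benjamini-Hochberg adjustment over all genes, 0 of the 10 passed 0.05, against 0% of all genes tested in either direction, and the members' adjusted p ran from 0.0859 to 0.275. At an unadjusted p under 0.05 there were 6 lower members (19.3% of all genes) and 1 higher member (16.7%). In 4 members, Casq2, Jph2, Camk2d and Pln, all doxorubicin values lay below all vehicle values, a pattern seen in 22.6% of all genes tested. No gene is therefore reported as changed with all 6 libraries.

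Doxorubicin replicate 1 set that count. In the 9 genes other than Sln, its log2 differences from the vehicle mean ran only from -0.41 to 0.10, whereas those of replicate 2 ran from -2.59 to -0.50 and those of replicate 3 from -2.57 to -1.05. Replicate 1 lay inside the vehicle range in 5 of the 10 genes. Without it, limma called 8 of the 10 lower (21.8% of all genes), that is, all members except Pln and Sln, and the median of the 10 was -1.60. In 9 of the 10 the vehicle libraries and the remaining doxorubicin libraries then did not overlap, with doxorubicin lower (32.9% of all genes). Library weights, by which limma gave doxorubicin replicate 1 a weight of 0.277, also led to 8 members called lower (18.6% of all genes), and a threshold of 0.10 with all 6 libraries to 5 (13.1%). Among the vehicle libraries, replicate 3 held the highest value of all 9 genes and replicate 1 the lowest of 7.

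**Figure D1:**
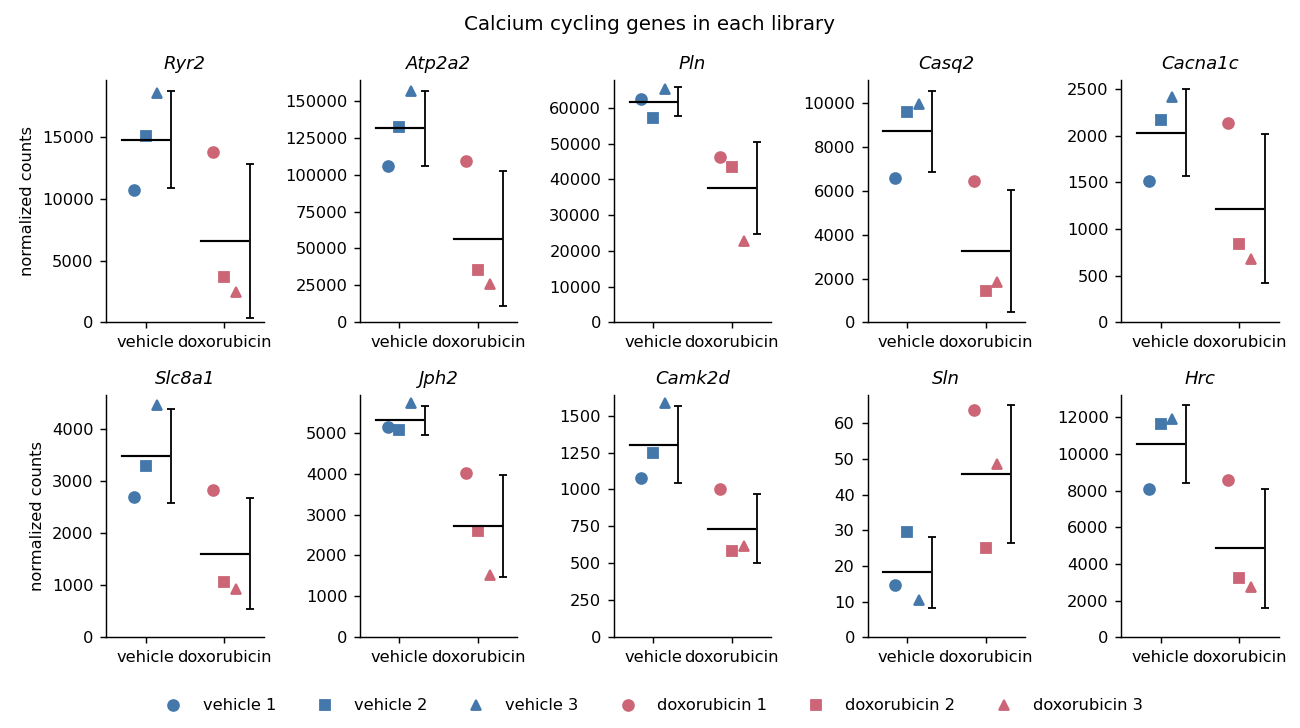
Normalized counts (y axis, each panel from 0) of the 10 genes in the 3 vehicle and 3 doxorubicin libraries. Each point is 1 library, the horizontal line is the group mean and the bar is the SD over 3 libraries. Doxorubicin replicate 1 (red circle) lies near the vehicle points in most panels, while replicates 2 and 3 lie lower in every panel but that of Sln.

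Calcium release was represented by Ryr2, Casq2 and Hrc. Ryr2 (chromosome 13, 11553099 to 12106945), the release channel of the sarcoplasmic reticulum whose promoter is shown above, held 10737, 15134 and 18585 normalized counts with vehicle and 13809, 3646 and 2441 with doxorubicin, in the order of the replicate numbers. The first doxorubicin library lay amid the vehicle values, and the other two lay far below them, at 24.6% and 16.5% of the vehicle mean. The log2 fold change was -1.54 (SE 0.61, limma adjusted p 0.121), and without doxorubicin replicate 1 it was -2.28 (SE 0.30, adjusted p 0.00113).

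Casq2 (chromosome 3, 102086415 to 102146514) encodes calsequestrin, the main calcium buffer inside the reticulum. It held 6606, 9613 and 9971 in the vehicle libraries and 6459, 1422 and 1852 in the doxorubicin libraries. The groups did not overlap, but only narrowly, since doxorubicin replicate 1 lay just under vehicle replicate 1. At -1.74 (SE 0.54, limma adjusted p 0.0863), its log2 fold change was the most negative of the 10, and 0.826% of all genes tested had a lower one. Casq2 was also the member with the lowest value relative to vehicle in doxorubicin replicate 2, at 16.3% of the vehicle mean.

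Hrc (chromosome 7, 45335269 to 45338973), the histidine-rich calcium-binding protein of the reticulum lumen, held 8109, 11649 and 11911 in the vehicle libraries and 8592, 3218 and 2714 in the doxorubicin libraries. Doxorubicin replicate 1 exceeded the lowest vehicle library, so the groups overlapped. Hrc thus differed by -1.30 on the log2 scale (SE 0.45, limma adjusted p 0.0943).

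Calcium uptake was represented by the pump and its 2 small inhibitors. Atp2a2 (chromosome 5, 122453513 to 122502225) encodes SERCA2, the calcium pump of the cardiac reticulum. With vehicle it held 105593, 132418 and 156448 normalized counts, and with doxorubicin 108896, 35407 and 25645. Doxorubicin replicate 1 lay within the vehicle range and the other two held 26.9% and 19.5% of the vehicle mean. On the log2 scale the difference was -1.49 (SE 0.71, limma adjusted p 0.173). Under quantile normalization, which gives every library the same distribution of values, it was -0.25.

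Pln (chromosome 10, 53337686 to 53345999) encodes phospholamban, which restrains SERCA2 until it is phosphorylated. It held 62632, 57317 and 65214 in the vehicle libraries and 46285, 43487 and 22688 in the doxorubicin libraries. Every doxorubicin value lay below every vehicle value, at 75.0%, 70.5% and 36.8% of the vehicle mean in replicates 1, 2 and 3. For the pump the shares were 82.8%, 26.9% and 19.5%, so Pln was nearer to vehicle than Atp2a2 in replicates 2 and 3 but not in replicate 1. Phospholamban RNA differed by -0.79 on the log2 scale (SE 0.49, limma adjusted p 0.275), and by -0.46 without doxorubicin replicate 3. It did not pass without doxorubicin replicate 1 either (-0.97, adjusted p 0.12), and it was -0.48 with equal library totals and turned to 0.46 under quantile normalization.

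Sln (chromosome 9, 53850251 to 53853849) encodes sarcolipin, a second small inhibitor of SERCA pumps that in rodents is abundant in atria and scarce in ventricles. It was the least abundant member, at 14.6, 29.5 and 10.5 in the vehicle libraries and 63.7, 25.2 and 48.6 in the doxorubicin libraries. Replicates 1 and 3 of doxorubicin lay above every vehicle library, and replicate 2 lay below vehicle replicate 2. These values rest on about 12 to 31 reads in a vehicle library and 21 to 60 in a doxorubicin library. For sarcolipin the log2 fold change was 1.31 (SE 0.48, limma adjusted p 0.103). It was 1.03 (adjusted p 0.128) without doxorubicin replicate 1, 1.71 without vehicle replicate 2 and 0.77 with library weights.

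Other atrial transcripts were read beside Sln. Of 7 atrial markers, 6 were tested, with 4 positive and 2 negative log2 fold changes and a median of 0.59. The summed level of the 7 was 1700 in doxorubicin replicate 1, which had the highest Sln, and 554 and 957 in replicates 2 and 3. In the vehicle libraries it was 706 to 780. Nppa was the largest part of the sum in every library, at 860, 234 and 495 after doxorubicin and 359 to 369 with vehicle. Myl7, the atrial myosin light chain, held 236, 44.3 and 61.3 in doxorubicin replicates 1 to 3 and 28.7 to 75.5 in the vehicle libraries. Dkk3 had the largest log2 fold change of the tested atrial markers, 2.04, with 124, 63.4 and 192 against 14.5 to 41.4 and no overlap. Myl4, Myl7 and Nppa had 1.00, 0.83 and 0.34, with groups that overlapped. Sbk2, a kinase gene of the list, went the other way, with 18.9, 2.45 and 13.7 against 26.0 to 38.4. Its log2 fold change was -1.65 with no overlap, and Stard10 had -0.53. Bmp10, a growth factor of the atrium, was listed at 0 in all vehicle libraries and in doxorubicin replicate 2, and at 5.24 and 16.3 in doxorubicin replicates 1 and 3. None of the 7 was at 0 in every library. Sums of 7 skeletal muscle markers, a tissue that also makes sarcolipin, were 17.1 to 37.2 after doxorubicin and 13.0 to 21.9 with vehicle, and Myh1 was at 0 throughout. The part of atrial RNA in the Sln difference was not tested.

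The surface membrane was represented by Cacna1c and Slc8a1. Cacna1c (chromosome 6, 118587240 to 119197384), the pore of the L-type channel through which calcium enters, held 1520, 2165 and 2419 in the vehicle libraries and 2136, 844 and 683 in the doxorubicin libraries. It was the only one of the 9 lower genes in which doxorubicin replicate 1 lay above the vehicle mean on the log2 scale, by 0.10. The log2 fold change was -0.90 (SE 0.42, limma adjusted p 0.163). Single libraries moved it, to -1.39 without doxorubicin replicate 1 and -0.57 without replicate 3, and equal library totals gave -0.60.

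Slc8a1 (chromosome 17, 81373105 to 81738387), the sodium-calcium exchanger that extrudes calcium, held 2695, 3294 and 4462 in the vehicle libraries and 2831, 1059 and 923 in the doxorubicin libraries. The groups overlapped through doxorubicin replicate 1. Exchanger RNA differed by -1.28 on the log2 scale (SE 0.43, limma adjusted p 0.0903). Its profile over the 6 libraries was closest to that of Hrc among the members, with a mean absolute difference of 0.082 log2 units.

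Jph2 and Camk2d stand for dyad structure and for regulation. Jph2 (chromosome 2, 163336242 to 163398049) encodes junctophilin 2, which tethers the surface membrane to the reticulum. It held 5133, 5074 and 5721 in the vehicle libraries and 4022, 2605 and 1525 in the doxorubicin libraries. The vehicle libraries were close together and all doxorubicin libraries lay below them. The difference was -1.07 on the log2 scale (SE 0.34, limma adjusted p 0.0872), and -0.71 without doxorubicin replicate 3.

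Camk2d (chromosome 3, 126595487 to 126846326), the main cardiac isoform of the calmodulin-dependent kinase that phosphorylates the release channel and phospholamban, held 1079, 1245 and 1588 in the vehicle libraries and 1002, 581 and 619 in the doxorubicin libraries. The groups did not overlap, although doxorubicin replicate 1 was close to vehicle replicate 1. The log2 fold change was -0.85 (SE 0.25), and its adjusted p of 0.0859 by limma was the smallest of the 10. With equal library totals the difference was -0.55.

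**Figure D2:**
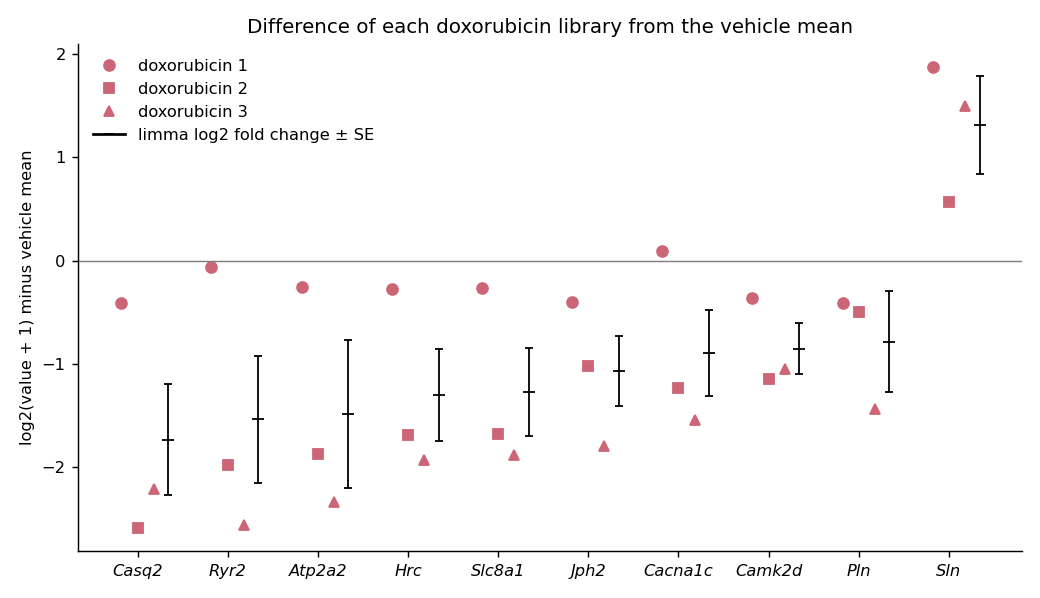
Difference of each doxorubicin library from the vehicle mean, on the log2(value + 1) scale (y axis), for the 10 genes ordered by log2 fold change. Points are libraries and black marks are the limma log2 fold change with its SE. For the 9 lower genes replicate 1 lies between -0.41 and 0.10, and replicate 3 lies at or below -1.05.

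The Xist and Y-linked classes gave the same direction for each member. Within the Y-linked class, which holds 2 vehicle libraries and doxorubicin replicate 2, the log2 difference was -1.81 for Ryr2, -1.74 for Atp2a2, -0.46 for Pln, -2.49 for Casq2 and 0.27 for Sln. Within the Xist class, which holds 1 vehicle library and doxorubicin replicates 1 and 3, the corresponding values were -1.68, -1.57, -1.01, -1.53 and 2.30. These are values with no test, because each class has a group of a single library. The differences of Pln and Sln were larger in the Xist class and that of Casq2 in the Y-linked class.

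Levels were compared between genes only per kilobase of the longest protein-coding GENCODE M21 transcript, which ran from 1.32 kb for Sln to 18.5 kb for Slc8a1. In the vehicle libraries the mean level per kilobase was 29310 for Atp2a2 and 26444 for Pln, 4378 for Hrc and 3415 for Casq2, 1261 for Jph2 and 881 for Ryr2. Camk2d (236), Slc8a1 (189), Cacna1c (155) and Sln (13.8) followed. The vehicle ranges of neighbours overlapped between Atp2a2 and Pln, between Hrc and Casq2, between Camk2d and Slc8a1, and between Slc8a1 and Cacna1c. Within each vehicle library, Hrc stood above Casq2 and Camk2d above Slc8a1 above Cacna1c, whereas the order of Atp2a2 and Pln differed between vehicle libraries. With doxorubicin the mean of Pln (16061) stood above that of Atp2a2 (12628). In replicates 2 and 3 the levels per kilobase were 18632 and 9721 for Pln against 7893 and 5717 for Atp2a2, while in replicate 1 they were 19831 and 24274. The order of this pair depends on the transcript chosen, since the shortest coding Pln transcript has 531 bases and the longest 2334. The same limit holds for the other orders given here. Shortest and longest coding transcripts have 1106 and 16814 bases in Ryr2, 2017 and 18464 in Slc8a1, and 640 and 5524 in Camk2d. In Hrc they have 607 and 2411, and in Casq2 936 and 2556. The part of transcript length in the differences was not tested. The members over 10 kb were Ryr2, Slc8a1 and Cacna1c, with log2 fold changes of -1.54, -1.28 and -0.90. Casq2, Hrc, Pln and Sln, all under 3 kb, had -1.74, -1.30, -0.79 and 1.31. Atp2a2, Jph2 and Camk2d, between these lengths, had -1.49, -1.07 and -0.85.

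The members were next read against other myocyte genes of the same library, as the log2 value minus the median log2 value of the 11 cardiomyocyte markers (Myh6, Tnnt2, Tnni3, Tnnc1, Actc1, Myl2, Myl3, Actn2, Ttn, Mb and Ckm). The markers themselves had a median log2 fold change of -1.37, against -1.18 for the members. Single markers ran from -2.10 (Actc1) to -0.78 (Actn2 and Tnnt2). The log2 fold changes of the 9 lower members, -1.74 to -0.79, lay inside that range. On this scale the difference between groups was small in Hrc (0.10), Slc8a1 (0.12), Atp2a2 (-0.09) and Ryr2 (-0.14), with two-sided exact permutation p of 1, 0.7, 0.8 and 0.7. Casq2 stood at -0.34 (exact p 0.4), Jph2 at 0.33 (0.3), Camk2d at 0.55 (0.2) and Pln at 0.61 (0.2). In Cacna1c and Sln, with 0.50 and 2.72, every doxorubicin library lay above every vehicle library, and both had an exact p of 0.1, the smallest that 3 libraries against 3 allow. Adjusted over the 10 members these were 0.5. Without vehicle replicate 1 the difference of Cacna1c was 0.25 and that of Camk2d 0.36. Without doxorubicin replicate 2, Pln stood at 0.28, Jph2 at 0.11 and Casq2 at -0.11. Casq2 was -0.58 without vehicle replicate 1, -0.20 without vehicle replicate 3 and -0.53 without doxorubicin replicate 1. Sln relative to the markers was -11.4, -10.3 and -11.7 in the vehicle libraries and -8.81, -8.79 and -7.70 in the doxorubicin libraries. The spread among vehicle libraries on this scale was 0.13 to 0.73 (SD, n = 3), so that differences of that size were not resolved.

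**Figure D3:**
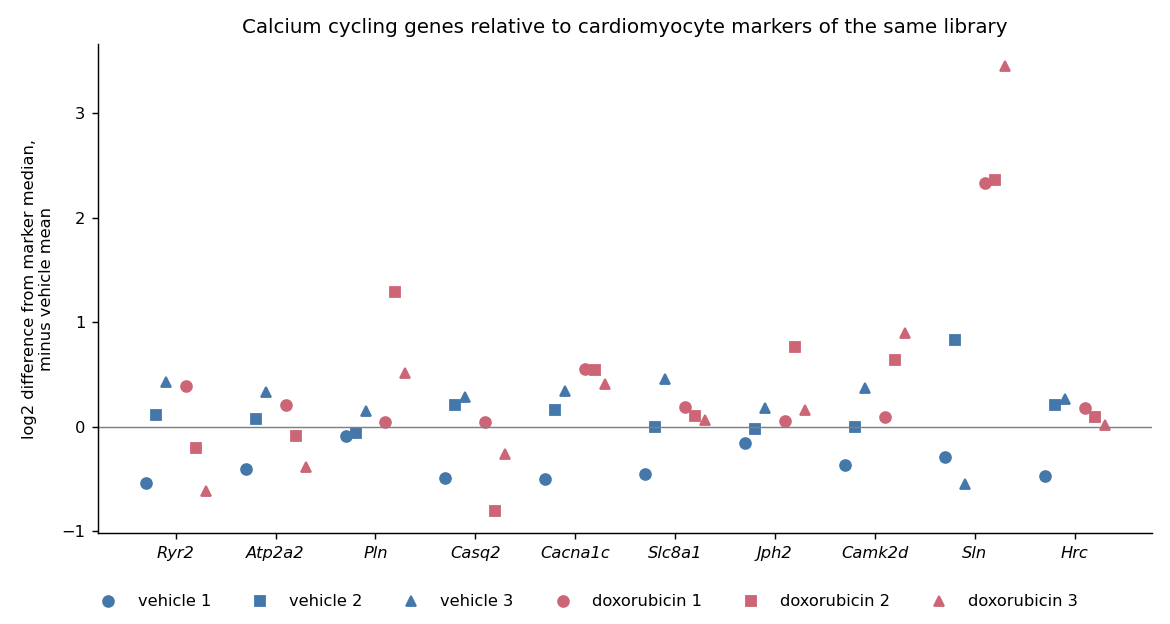
The 10 genes relative to cardiomyocyte markers: log2 value minus the marker median of the same library, shown as the distance from the vehicle mean (y axis, log2 units). Each point is 1 library. All 3 doxorubicin points lie above the vehicle mean in 7 genes and on both sides of it in Ryr2, Atp2a2 and Casq2. In Sln and Cacna1c they lie above all vehicle points.

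Apart from the pseudocount of 1, ratios of 2 members within a library do not depend on how that library was scaled, and 9 were compared. The pseudocount bears on the low values of Sln. A pseudocount of 8 moved the difference of Sln to Atp2a2 from 2.80 to 2.52 and that of Sln to Pln from 2.10 to 1.82. The ratio of Pln to Atp2a2, an inhibitor to its pump, was -0.75, -1.21 and -1.26 on the log2 scale in the vehicle libraries and -1.23, 0.30 and -0.18 in the doxorubicin libraries. The first doxorubicin library resembled the vehicle libraries, and the other two lay above them. The difference was 0.70 with an exact permutation p of 0.3 (0.45 adjusted over the 9 ratios), with 1.13 without doxorubicin replicate 1 and 0.37 without replicate 2. The ratio of Sln to Atp2a2 was higher in all 3 doxorubicin libraries than in any vehicle library, by 2.80 in the mean (SD 0.83 among vehicle and 0.91 among doxorubicin libraries, n = 3 each, exact p 0.1, adjusted 0.225). The ratio of Sln to Pln differed by 2.10 (exact p 0.1, adjusted 0.225), again with no overlap.

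Among the genes of calcium release and entry, the ratio of Hrc to Casq2 was tightly held in the vehicle libraries, at 0.30, 0.28 and 0.26 on the log2 scale. It was 0.41, 1.18 and 0.55 in the doxorubicin libraries, a difference of 0.44 (exact p 0.1, adjusted 0.225) that was 0.20 without doxorubicin replicate 2. The ratio of Cacna1c to Ryr2 was -2.82, -2.80 and -2.94 against -2.69, -2.11 and -1.84, a difference of 0.64 with the same p values. In both ratios every doxorubicin library lay above every vehicle library. The ratios of Slc8a1 to Atp2a2 (difference 0.21), Jph2 to Ryr2 (0.47), Camk2d to Ryr2 (0.69) and Casq2 to Ryr2 (-0.20) overlapped between groups, with exact p of 0.2, 0.4, 0.4 and 0.6. Single doxorubicin libraries moved these 4, as Slc8a1 to Atp2a2 was 0.32 without replicate 1 and 0.087 without replicate 3, and Jph2 to Ryr2 was 0.87 without replicate 1 and 0.22 without replicate 2. Camk2d to Ryr2 was 1.18 without replicate 1 and 0.27 without replicate 3, and Casq2 to Ryr2 was -0.13 without replicate 1, 0.0040 without replicate 2 and -0.48 without replicate 3. With 3 libraries against 3, this exact test cannot pass 0.05 for any ratio.

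**Figure D4:**
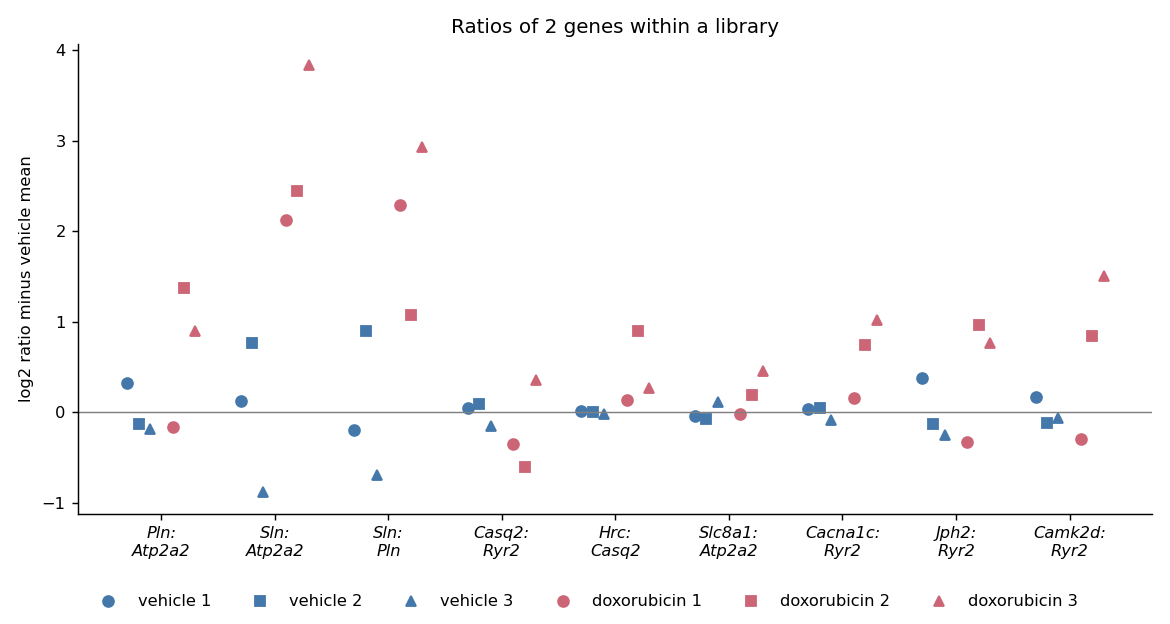
Log2 ratios of 2 calcium cycling genes in each library, as the distance from the vehicle mean of that ratio (y axis, log2 units). Each point is 1 library. The ratios of Sln to Atp2a2, Sln to Pln, Hrc to Casq2 and Cacna1c to Ryr2 have no overlap between groups.

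Further genes of calcium handling were grouped into 7 role lists with 77 genes, of which 62 were tested. Strit1, Arln and Erln were not analysed here, and Fkbp1b, a partner of the release channel, was under the minimum mean. By limma 0 of the 62 passed 0.05 in either direction, with 25 lower (19.3% of all genes) and 11 higher (16.7%) at an unadjusted p under 0.05. Of the 62, 41 had a negative log2 fold change (50.4% of all genes) and 21 a positive one, with a median of -0.34. Groups did not overlap in 27 lower genes (22.6% of all genes tested) and 13 higher genes (19.2%). Without doxorubicin replicate 1, 27 were called lower (21.8% of all genes) and 12 higher (19.3%). These genes were thus more mixed in direction than the 10 members, a description with no test.

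Of 12 tested partners of the release unit, 7 had a negative log2 fold change (50.4% of all genes tested) and 5 a positive one, with a median of -0.53. Trdn, the triadin that anchors calsequestrin to the release channel, held 1963, 2612 and 2650 in the vehicle libraries and 1630, 770.0 and 734 in the doxorubicin libraries (log2 fold change -1.29). Asph, whose locus also encodes the triadin-like junctin, differed by -1.50, from 2113 to 2570 with vehicle to 556 to 1668 with doxorubicin. Itpr3, an inositol trisphosphate receptor, went the other way, at 157 to 201 against 248 to 437 (0.93). In each of these 3 the groups were separate, as in 22.6% (lower) and 19.2% (higher) of all genes tested. Genes were named from each list by smallest unadjusted p, a choice that favours separate groups. Among 5 tested genes of reticulum uptake, Srl, the luminal calcium-binding sarcalumenin, had -1.37 and the low-level phosphatase inhibitor Ppp1r1a -1.57. Atp2a3, which encodes a SERCA pump typical of non-muscle cells, had 1.25, with 111 to 144 in the vehicle and 244 to 411 in the doxorubicin libraries.

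Of 10 tested channel subunits and regulators, 7 had a negative log2 fold change (50.4% of all genes tested) and 3 a positive one, with a median of -1.04. Cacnb2, the main cardiac beta subunit of the L-type channel, held 472, 509 and 624 in the vehicle libraries and 356, 170.1 and 95.4 in the doxorubicin libraries (log2 fold change -1.56). Rrad, a small GTPase that inhibits the channel, had -1.81, and the low-level gamma subunit Cacng6 had 1.21. Of 6 tested genes of surface extrusion and store-operated entry, 4 had a positive log2 fold change and 2 a negative one (50.4% of all genes tested). The surface pump Atp2b4 had 0.79, and the reticulum calcium sensors Stim1 and Stim2 had 0.90 and 0.82. These 3, named for the smallest unadjusted p of their list, had groups that did not overlap (19.2% of all genes tested, higher). Among 6 tested dyad genes 5 had a negative log2 fold change (50.4% of all genes tested). They included Jph1 (-0.77), Nexn (-1.07), which encodes nexilin, and Cav3 (-0.84), which encodes the muscle caveolin.

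Of the 15 tested calmodulin, kinase and phosphatase genes, 11 had a negative log2 fold change (50.4% of all genes tested). The other 4 had a positive one, and the median was -0.34. The catalytic subunit Prkaca of protein kinase A had -0.95, the kinase isoform Camk2a -1.34 and the calcineurin subunit Ppp3cb -0.66. These 3, named for the smallest unadjusted p of their list, had no overlap between groups (22.6% of all genes tested, lower). Of 8 tested genes listed for mitochondrial calcium uptake and exchange, 5 had a negative log2 fold change (50.4% of all genes tested) and 3 a positive one. The uniporter pore Mcu held 177 to 193 in the vehicle and 99.7 to 162 in the doxorubicin libraries (-0.60), and Letm1, an inner-membrane ion exchange protein, had -0.89. The sodium-calcium exchanger Slc8b1 of the inner membrane had 1.06. Among all genes named from the role lists, the limma adjusted p lay between 0.0859 and 0.126.

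**Figure D5:**
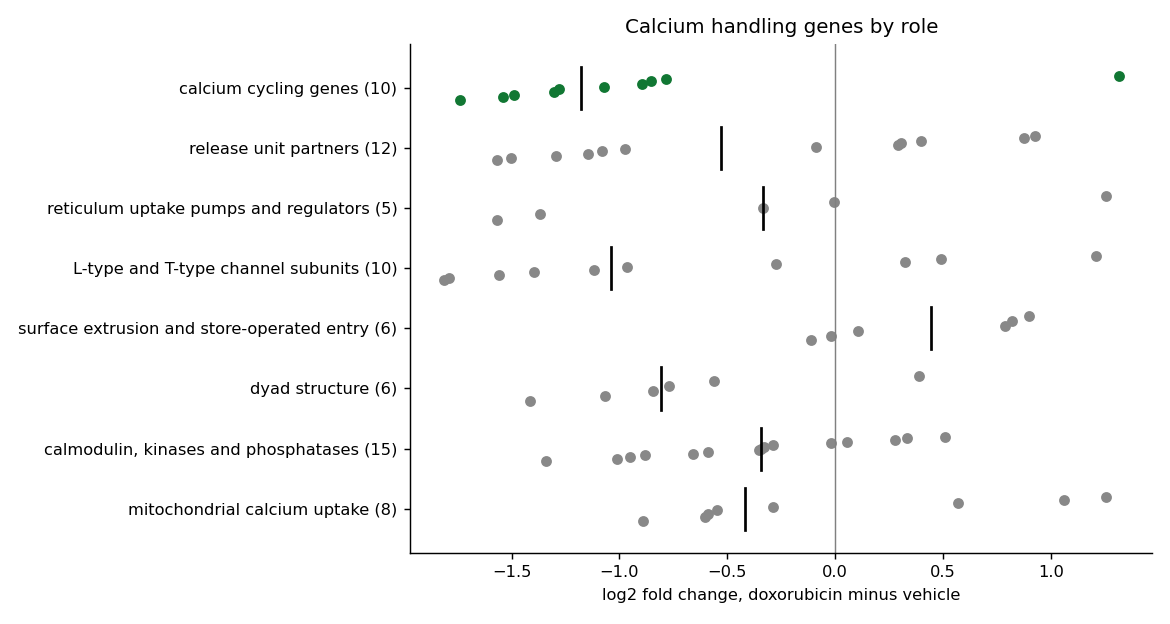
Log2 fold change, doxorubicin minus vehicle (x axis), of the 10 calcium cycling genes (green) and of the tested genes of 7 other role lists (grey), with the number tested in parentheses. Each point is a gene and black bars are medians. The list of surface extrusion and store-operated entry is the only one of the 8 with a median above 0, at 0.45.

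The members' own profiles were compared over the 6 libraries, as log2(value + 1) minus the vehicle mean. The median profile of the 10 was -0.32, 0.05 and 0.24 with vehicle and -0.27, -1.46 and -1.84 with doxorubicin, by replicate number. Hrc and Slc8a1 lay closest to it (mean absolute difference 0.089 each), Pln lay farthest of the 9 lower genes (0.359) and Sln stood apart (1.54). Ryr2 and Atp2a2 were each other's nearest member (0.131). Of 8203 other genes with a mean of at least 100, the 5 nearest to the median profile were Ccdc141 (0.039), Kif21a (0.055), Lrpprc (0.068), Flnc (0.073) and Cyfip2 (0.076).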

How the data were processed

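RNA from 6 cardiomyocyte samples was compared. Alignment was by STAR in BaseSpace, to mm10 and RefSeq genes, per the labels' design text, and the submitters' processing notes list STAR 2.6.1a and Salmon. The authors deposited a signal per gene and sample, normalized counts with no value below 0. How they were normalized, filtered and counted by strand is not given in the sources used here. Sample titles gave the groups and replicate numbers.

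Genes with a mean of at least 10 were tested as log2(value + 1) with limma 3.58.1 in R 4.3.3 (two-sided, mean-dependent prior variance, Benjamini-Hochberg over all genes tested, threshold 0.05), which was tested on simulated data first. Single values were compared by exact permutation tests over samples, two-sided, where 3 against 3 cannot go below 0.1. Samples of a group are separate mice per the design text. Depth was estimated from the low values, the most frequent one standing for 1 read. Of the low values of a sample, 79.9% to 92.5% were whole multiples of it to within 0.1, too few to recover reads, and no count test was run. Coordinates are from RefSeq GRCm38.p6 and count from 1.

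The members and lists were chosen with earlier results of these data known. Named beside the members are the 3 genes of each role list with the smallest unadjusted p, the genes Fkbp1b, Trdn, Strit1, Mcu, Jph1 and Cacnb2 where tested, and the 5 genes nearest the members' median profile. Further genes that the rule names are not reported here. Marker lists were also made for smooth muscle and pericytes (median log2 fold change -0.09) and erythroid cells (-0.85, with summed values of 9027 in doxorubicin replicate 1, 421 or less in replicates 2 and 3, and 1211 to 2104 with vehicle). Alternatives covered pseudocount, filter, scaling, moderation, library weights, class covariate, replicate block and leaving out each library. Figures were drawn with matplotlib 3.10.9.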

Additional observations from a re-analysis of the deposited data

How the results depend on the processing

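At the threshold of 0.05, limma called 0 genes and 0 members under 9 settings that kept all 6 libraries. These were pseudocounts of 0.5 and 8, no filter, a minimum mean of 50 (which dropped Sln), equal totals, quantile normalization, a prior without the trend, the class covariate and the replicate block. A threshold of 0.10 gave 3022 genes and 5 members (Camk2d, Casq2, Jph2, Slc8a1 and Hrc). Library weights gave 4272 genes and 8 members. Leaving out 1 library gave 0 to 5127 genes and 0 to 8 members, both highest without doxorubicin replicate 1; without doxorubicin replicate 2 there was 1 gene, and without any other library 0. The median of the members ran from -1.60 to -0.87 over these fits, and from -1.33 to -0.75 over the other settings. Scaling to equal totals moved the median of all genes to 0.29 and that of the members to -0.87.

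Of the members' log2 fold changes, that of Pln reversed under quantile normalization, to 0.46 (limma adjusted p 0.557). The cause was not tested. Relative to cardiomyocyte markers, the small differences of 4 genes changed sign: Slc8a1 ranged from -0.10 to 0.35 and Hrc from -0.14 to 0.23 over the fits leaving out 1 library, negative without vehicle replicate 1. Ryr2 ranged from -0.41 to 0.10 and Atp2a2 from -0.29 to 0.079, positive without vehicle or doxorubicin replicate 3. The ratio of Casq2 to Ryr2 ranged from -0.48 to 0.0040, positive without doxorubicin replicate 2. A pseudocount of 8 reversed none of the ratios or relative levels, and gave 2.52 for Sln to Atp2a2.

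The replicate numbers only name samples. Deviations of same-numbered samples from their group means correlated at -0.13, 0.033 and -0.093, and those of differently numbered samples at -0.18 to 0.22. With the replicate block limma called 0 genes, with a smallest adjusted p of 0.115. At this depth Sln rests on about 12 to 60 reads per library, which limits its fold change, while every other member rests on about 420.0 reads or more.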
